A study of Mus musculus with 6 samples.

Results

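The subject is 10 genes of the circadian clock in mouse microglia, brain-resident macrophages: Per1, Per2, Cry1, Cry2, Nr1d1, Nr1d2, Arntl, Clock, Dbp and Ciart. They were picked by gene symbol from a table of 26096 genes, in which each symbol stands on 1 row. The rule itself uses no measured value, but the genes were chosen with earlier results of these data known. All 10 passed the filter on low values, which asked for 10 or more normalized counts in 3 or more of the libraries, as did 15597 genes in all. A normalized count here is a read count divided by a size factor of its library. RNA came from 6 samples of wild-type (WT) microglia. In 3 samples the cells had received FeM CM, culture medium taken from bone marrow-derived macrophages undergoing ferroptosis, a death programme in which iron and peroxidised lipids damage the membranes. In the other 3 samples they had received C CM, culture medium of normal bone marrow-derived macrophages. How ferroptosis was induced, how long the cells were exposed, where the microglia came from and at which hour they were collected were not given in the sources used here. No time series is labelled. A level at a single time cannot be told apart from a shift in the phase of a rhythm.

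The mammalian clock is a transcriptional feedback loop that runs in nearly every cell type, macrophages and microglia included. The proteins of Arntl (also called BMAL1) and Clock pair up and switch on genes that carry an E-box, among them the Per, Cry and Nr1d genes, Dbp and Ciart. PER and CRY proteins then block that pair, while the REV-ERB receptors encoded by Nr1d1 and Nr1d2 repress Arntl through ROR elements and, in macrophages, are known to restrain inflammatory genes.

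Promoter windows of 300 bases, from 250 before to 50 after the RefSeq start (GRCm38.p6), were at hand for 9 of the 10 genes and held 13 windows. They were searched on both strands for the E-box CACGTG, the D-box TTATGTAA or TTACGTAA, the ROR element TAGGTCA or TGGGTCA, and the cAMP response element (CRE) TGACGTCA. Matches did not overlap each other. The E-box was found in 3 of these 13 windows, those of Ciart, Cry1 and Per1, and in 7.15% of all 32851 windows of that length. The ROR element was found in 1 window, of Arntl, and in 6.45% of all windows. The D-box (1.06% of all windows) and the CRE (1.79%) were in none of the 13, which says only that these letters are not in these windows. The windows with a match are shown 5′ to 3′ with the matches in capitals, and that of Cry2 is set beside Cry1 because the pair moved in opposite directions in the counts below.
Ciart, chr3:95882179-95882478, minus strand: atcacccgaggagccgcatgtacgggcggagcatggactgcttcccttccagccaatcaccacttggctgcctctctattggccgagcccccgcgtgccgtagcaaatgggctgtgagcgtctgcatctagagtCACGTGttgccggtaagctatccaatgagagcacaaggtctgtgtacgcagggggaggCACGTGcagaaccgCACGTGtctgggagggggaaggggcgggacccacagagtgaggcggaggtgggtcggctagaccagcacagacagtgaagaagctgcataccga
Cry1, chr10:85185005-85185304, minus strand: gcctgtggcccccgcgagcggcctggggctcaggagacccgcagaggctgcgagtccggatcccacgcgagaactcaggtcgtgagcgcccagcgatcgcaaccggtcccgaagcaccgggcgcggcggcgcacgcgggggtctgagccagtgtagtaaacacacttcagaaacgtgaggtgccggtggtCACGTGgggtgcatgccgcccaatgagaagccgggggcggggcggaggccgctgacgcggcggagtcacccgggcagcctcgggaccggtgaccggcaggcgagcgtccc
Cry2, chr2:92434020-92434319, minus strand: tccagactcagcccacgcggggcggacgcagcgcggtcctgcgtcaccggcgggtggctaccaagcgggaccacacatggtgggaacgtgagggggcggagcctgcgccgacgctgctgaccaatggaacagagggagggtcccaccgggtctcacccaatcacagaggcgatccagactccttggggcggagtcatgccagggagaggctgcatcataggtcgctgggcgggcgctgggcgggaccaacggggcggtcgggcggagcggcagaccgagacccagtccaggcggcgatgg
Per1, chr11:69098699-69098998, plus strand: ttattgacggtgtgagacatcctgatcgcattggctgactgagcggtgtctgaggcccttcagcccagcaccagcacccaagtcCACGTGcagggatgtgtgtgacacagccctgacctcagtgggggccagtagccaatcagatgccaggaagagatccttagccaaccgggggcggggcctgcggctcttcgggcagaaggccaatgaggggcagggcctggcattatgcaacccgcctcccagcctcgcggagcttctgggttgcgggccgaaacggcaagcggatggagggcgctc
Arntl, chr7:113207261-113207560, plus strand: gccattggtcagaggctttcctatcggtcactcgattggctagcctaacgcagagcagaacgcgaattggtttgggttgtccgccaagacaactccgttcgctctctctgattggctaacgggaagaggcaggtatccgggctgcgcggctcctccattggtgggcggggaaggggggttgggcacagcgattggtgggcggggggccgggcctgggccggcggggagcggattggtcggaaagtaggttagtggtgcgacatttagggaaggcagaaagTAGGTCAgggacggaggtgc
The Ciart window carried 3 E-boxes, whose first bases stood 116, 58 and 44 bases before the start. The Cry1 E-box began 60 bases and the Per1 E-box 166 bases before the start, and the Arntl ROR element began at base 31 after it.

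The libraries held 39624311 to 41953603 assigned reads with FeM CM and 43419446 to 50557794 with C CM. Across the genes tested, log2 values correlated at 0.980 or above within a group and at 0.962 to 0.967 between groups, where genes are not independent replicates. Of 15 listed microglial markers 13 were measured and 8 passed the filter: Csf1r and Trem2 were abundant, whereas the homeostatic markers P2ry12 and Tmem119 had 3 and 21 reads over the 6 libraries. Fcrls, Gpr34 and C1qa had 5 reads each. Summed microglial markers lay at 120195 to 121062 normalized counts with FeM CM and at 142773 to 147763 with C CM. Csf1r was the largest part of that sum, with a mean of 58594 with FeM CM and 76237 with C CM. Of the 8 microglial markers that passed the filter 4 fell, Tyrobp rose (log2 fold change 0.19), and Cx3cr1, Aif1 and Ptprc did not pass the test. The summed lists for other cells did not overlap between the groups: astrocytes (1152 to 1218 with FeM CM, 880 to 977 with C CM; 3 of 5 measured markers passed the filter, Slc1a2 and Slc1a3 were at 5 reads or fewer), oligodendrocytes (4277 to 4487, against 6824 to 7335; 4 of 4), neurons (174 to 227, against 99.9 to 124; 2 of 3), and fibroblasts and endothelium (403 to 462, against 317 to 329.9; 4 of 6, with the collagen genes Col1a1 and Col1a2 at 10 and 1 reads). In each of these 4 lists 1 gene (Gja1, Mbp, Syp and Pecam1) carried most of the sum, and in the first 2 lists another marker went the other way. Taken gene by gene, 53.7% of all genes tested had groups that did not overlap. Of the astrocyte markers Gja1 rose (log2 fold change 0.49), Aldh1l1 fell (-0.64) and Gfap did not pass (-0.02), and of the oligodendrocyte markers Mbp (-0.69) and Cldn11 (-1.24) fell and Mag rose (1.01). Tubb3 (3.46), Pecam1 (0.51) and Dcn (2.08) rose, while Syp (0.40), Pdgfrb (0.12) and Cdh5 (-0.43) did not pass. Of the neutrophil and lymphocyte list only S100a8 was measured, at 133 to 159.5 with FeM CM and 9.25 to 15.7 with C CM. All 14 cell cycle genes of a short list fell, where 22.8% of all genes tested were called lower. Their sum was 59421 to 61867 with FeM CM and 164141 to 169489 with C CM. The part of cell makeup and of proliferation in the results below was not tested, and in bulk RNA fewer cells of a type and less RNA per cell cannot be told apart.

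With FeM CM, 4 clock genes rose (Cry2, Arntl, Nr1d1 and Per1) and 3 fell (Dbp, Nr1d2 and Cry1), while Per2, Clock and Ciart did not pass the test. The changes ran in opposite directions within the cryptochrome and the REV-ERB pair, and ranged from a log2 fold change of -1.49 for Dbp to 0.98 for Cry2. The test was limma on the deposited log2 values over all 15597 genes, with a Benjamini-Hochberg adjusted p of 0.05 as threshold. By the same rule 42.5% of all genes passed, 19.7% higher and 22.8% lower, so the share of clock genes that changed stands beside a transcriptome that changed widely. The median size of the log2 fold change, sign ignored, was 0.44 over the 10 clock genes and 0.29 over all genes tested, and the signed medians were 0.17 and -0.01. In the authors' deposited table the same 7 genes have a false discovery rate under 0.05, where 27.3% of its 26096 genes do.

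**Figure D1:**
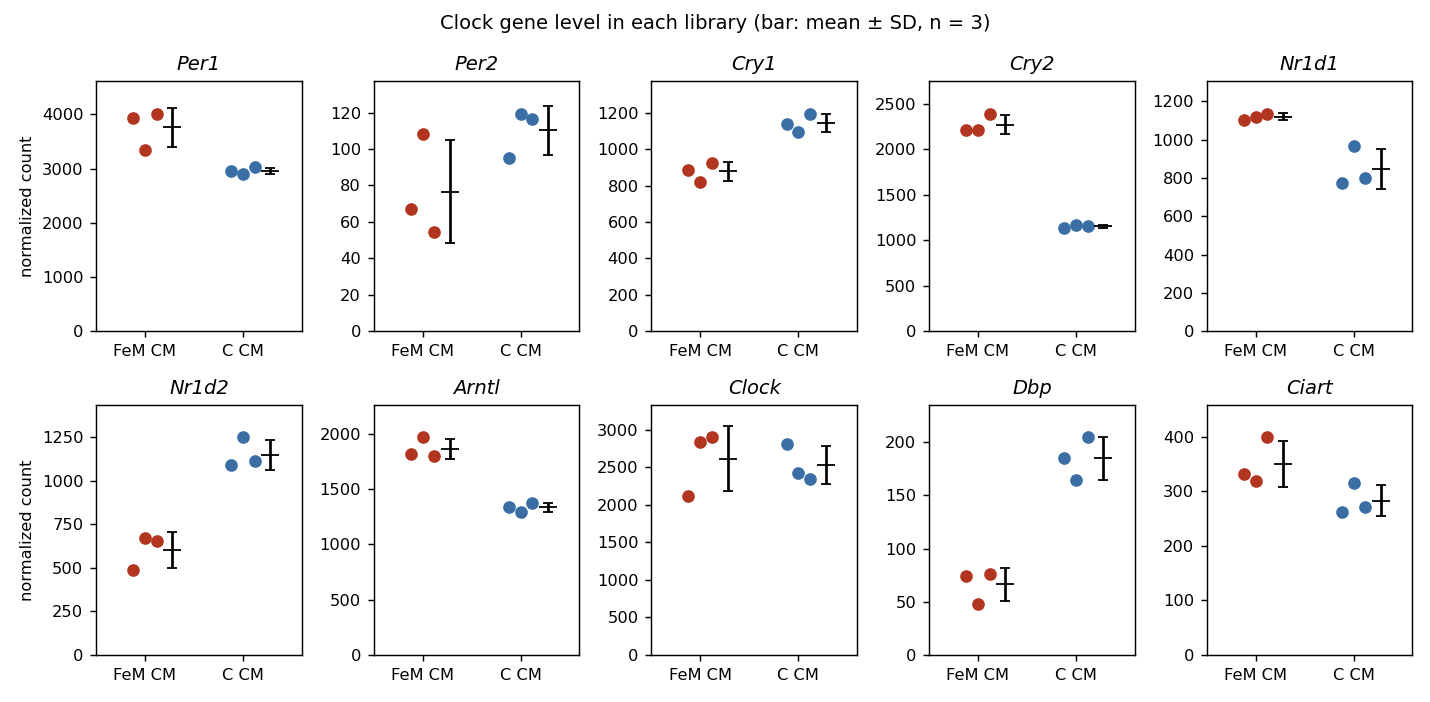
Normalized counts of the 10 clock genes (vertical axes, from 0) in the 3 FeM CM libraries (red) and the 3 C CM libraries (blue), with the mean and SD beside each group. Cry2 sits near 2272 with FeM CM and near 1152 with C CM, and Dbp near 66.3 and 184.8, while the groups of Clock and of Per2 overlap.

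The cryptochrome genes Cry1 and Cry2 encode the proteins that hold the BMAL1 and CLOCK pair in check. Cry2 (ENSMUSG00000068742) had 2209.7, 2214 and 2391 normalized counts in the FeM CM libraries, against 1136, 1165 and 1154 in the C CM libraries. Every FeM CM library lay above every C CM library by a wide margin, and the C CM libraries differed little among themselves. The mean was 2272 ± 104 with FeM CM and 1152 ± 14.5 with C CM (SD, n = 3 each), a log2 fold change of 0.98 (SE 0.05, 95% interval 0.85 to 1.10; limma adjusted p = 1.78e-06). Of all genes tested, 5.85% rose as much or more. Cry1 (ENSMUSG00000020038) went the other way, with 889, 823 and 925 normalized counts in the FeM CM libraries, against 1141, 1098 and 1196 in the C CM libraries. All FeM CM libraries lay below all C CM libraries, though the step was smaller than that of Cry2. The window of Cry1 printed above holds an E-box and that of Cry2 does not, which describes the letters only. The log2 fold change of Cry1 was -0.38 (SE 0.07, 95% interval -0.55 to -0.22; limma adjusted p = 0.00248). An antisense transcript, D930015M05Rik, shares 295 exon bases with Cry2, 4.67% of its exon length. It averaged 37.9 ± 7.66 with FeM CM and 13.4 ± 1.48 with C CM (SD, n = 3 each). Those counts do not bound the reads of the shared stretch, which cannot be told apart without the strand setting.

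The Period genes encode the partners of the cryptochromes in repression, and Per1 is also known as an early response gene of the clock to outside signals. Per1 (ENSMUSG00000020893) had 3927, 3341 and 4014 normalized counts in the FeM CM libraries, against 2954, 2902 and 3022 in the C CM libraries. FeM CM replicate 2 stood below its fellows but above every C CM library. The log2 fold change was 0.34 (SE 0.07, 95% interval 0.18 to 0.50; limma adjusted p = 0.00399). Per2 (ENSMUSG00000055866) was scarce, with 67.0, 108 and 54.3 normalized counts in the FeM CM libraries, against 95.0, 119 and 116 in the C CM libraries. The groups overlapped, because FeM CM replicate 2 lay among the C CM values. Its log2 fold change of -0.57 (SE 0.26, 95% interval -1.17 to 0.02) did not pass (limma adjusted p = 0.112), whereas without FeM CM replicate 2 it was -0.85 with a limma adjusted p = 0.0154. The 6 libraries together held 576 Per2 reads, which bounds the precision of that value. Per3, the last Period gene, was named after its values were seen: it averaged 171 ± 21.4 with FeM CM and 164 ± 17.0 with C CM (SD, n = 3 each), and its log2 fold change of 0.05 (SE 0.15) did not pass (limma adjusted p = 0.813).

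Nr1d1 and Nr1d2 encode the haem-binding repressors REV-ERB alpha and REV-ERB beta. Nr1d1 (ENSMUSG00000020889) had 1101, 1120.4 and 1135 normalized counts in the FeM CM libraries, against 776, 966 and 799 in the C CM libraries. The FeM CM libraries were close together and all above the C CM libraries, of which replicate 2 was the highest. The log2 fold change was 0.41 (SE 0.09, 95% interval 0.20 to 0.61; limma adjusted p = 0.00615). Nr1d2 (ENSMUSG00000021775) had 486, 673 and 655 normalized counts in the FeM CM libraries, against 1089, 1248 and 1111 in the C CM libraries. The groups stood well apart, with FeM CM replicate 1 the lowest of all. Its log2 fold change was -0.94 (SE 0.13, 95% interval -1.24 to -0.64; limma adjusted p = 0.000542), and 5.74% of all genes tested fell as much or more. Nr1d1 runs tail to tail with the thyroid hormone receptor gene Thra on the opposite strand and shares 263 exon bases with it, 8.55% of its exon length. The strand setting of the counting was not given in the sources used here, and reads of that stretch cannot be told apart without it. Thra averaged 1852 ± 93.3 with FeM CM and 1749.5 ± 32.9 with C CM (SD, n = 3 each; limma adjusted p = 0.281).

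**Figure D2:**
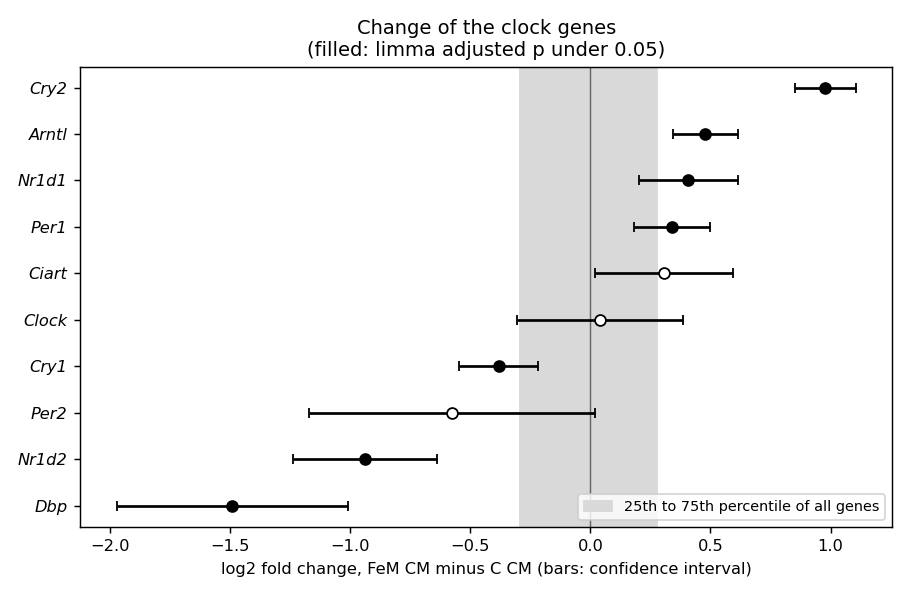
Log2 fold change of each clock gene, FeM CM minus C CM (horizontal axis), with its 95% interval from limma; filled points passed an adjusted p of 0.05, and the grey band runs from the 25th to the 75th percentile of all genes tested (-0.29 to 0.28). Cry2 at 0.98 and Dbp at -1.49 form the ends, and the intervals of Clock and Per2 cross 0.

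Arntl and Clock encode the activating pair. Arntl (ENSMUSG00000055116) had 1823, 1969.7 and 1799 normalized counts in the FeM CM libraries, against 1335, 1294 and 1379 in the C CM libraries. No library of one group came near the other group. The mean was 1864 ± 92.6 with FeM CM and 1336 ± 42.5 with C CM (SD, n = 3 each), a log2 fold change of 0.48 (SE 0.06, 95% interval 0.34 to 0.61; limma adjusted p = 0.000219). Clock (ENSMUSG00000029238) had 2116, 2838 and 2901 normalized counts in the FeM CM libraries, against 2815, 2425 and 2349.5 in the C CM libraries. FeM CM replicate 1 was the lowest and FeM CM replicate 3 the highest of all 6, so the groups overlapped. The log2 fold change of 0.04 (SE 0.14) did not pass (limma adjusted p = 0.853), and its 95% interval of -0.30 to 0.38 leaves room for a change in either direction. It was -0.026 without FeM CM replicate 2, -0.041 without FeM CM replicate 3 and -0.011 without C CM replicate 3.

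Dbp encodes an activator of the PAR bZIP family that acts on D-boxes and is among the most strongly rhythmic outputs of the clock. Dbp (ENSMUSG00000059824) had 74.4, 48.1 and 76.4 normalized counts in the FeM CM libraries, against 185.1, 165 and 205 in the C CM libraries. All FeM CM libraries lay far below all C CM libraries, with FeM CM replicate 2 the lowest. The mean was 66.3 ± 15.8 with FeM CM and 184.8 ± 19.9 with C CM (SD, n = 3 each), so that Dbp fell to 35.9% of its C CM level, and 2.00% of all genes tested fell as much or more. The log2 fold change was -1.49 (SE 0.21, 95% interval -1.97 to -1.01; limma adjusted p = 0.000497). Dbp alone of the 10 stands in the authors' shorter table of 1699 genes, which gives 0.438 ± 0.113 FPKM with FeM CM and 1.27 ± 0.128 FPKM with C CM (SD, n = 3 each). Dbp shares 539 exon bases, 18.0% of its exon length, with Sphk2 on the opposite strand, and there too reads cannot be told apart if strand was not used. Sphk2, a sphingosine kinase gene, had 3931, 1739 and 3587 normalized counts in the FeM CM libraries, against 3057, 3030.1 and 2814 in the C CM libraries. It was low in FeM CM replicate 2, the library with the least Dbp. Without that library the log2 fold change was -1.28 for Dbp (limma adjusted p = 0.000752) and 0.34 for Sphk2.

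Ciart, also called CHRONO, encodes a repressor that binds BMAL1, and its promoter window held more E-boxes than that of any other clock gene searched. Ciart (ENSMUSG00000038550) had 332, 319 and 399 normalized counts in the FeM CM libraries, against 261, 314.5 and 271 in the C CM libraries. The groups did not overlap, but the lowest FeM CM library and C CM replicate 2 were almost level. Its log2 fold change of 0.31 (SE 0.13, 95% interval 0.02 to 0.59) did not pass over all genes (limma adjusted p = 0.0823). Counted by overlap alone, 8 of the 10 clock genes had groups apart, 5 higher and 3 lower, where 53.7% of all genes tested did, 25.6% higher and 28.2% lower.

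The balance within each pair of genes was followed as the difference of their log2 normalized counts in each library. For Cry1 minus Cry2 it was -1.31, -1.43 and -1.37 in the FeM CM libraries, against 0.01, -0.09 and 0.05 in the C CM libraries, a mean shift of -1.36 (SE 0.05). For Nr1d1 minus Nr1d2 it was 1.18, 0.73 and 0.79 in the FeM CM libraries, against -0.49, -0.37 and -0.48 in the C CM libraries, a mean shift of 1.35 (SE 0.14). In both pairs every FeM CM library stood apart from every C CM library. For Arntl minus Clock the difference was -0.22, -0.53 and -0.69 in the FeM CM libraries, against -1.08, -0.91 and -0.77 in the C CM libraries, a mean shift of 0.44 (SE 0.17) in which the nearest libraries almost met. For Per1 minus Per2 it was 5.85, 4.93 and 6.18 in the FeM CM libraries, against 4.94, 4.59 and 4.69 in the C CM libraries, a shift of 0.92 (SE 0.39) with overlap at FeM CM replicate 2. An exact two-sided permutation test gave p = 0.1 for the first 3 pairs named here, the smallest value that 3 against 3 libraries allow, and p = 0.2 for the Period pair. Adjusted over the 4 pairs, these exact p-values were 0.133 and 0.2, so no shift could pass by this permutation test with 3 against 3 libraries.

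**Figure D3:**
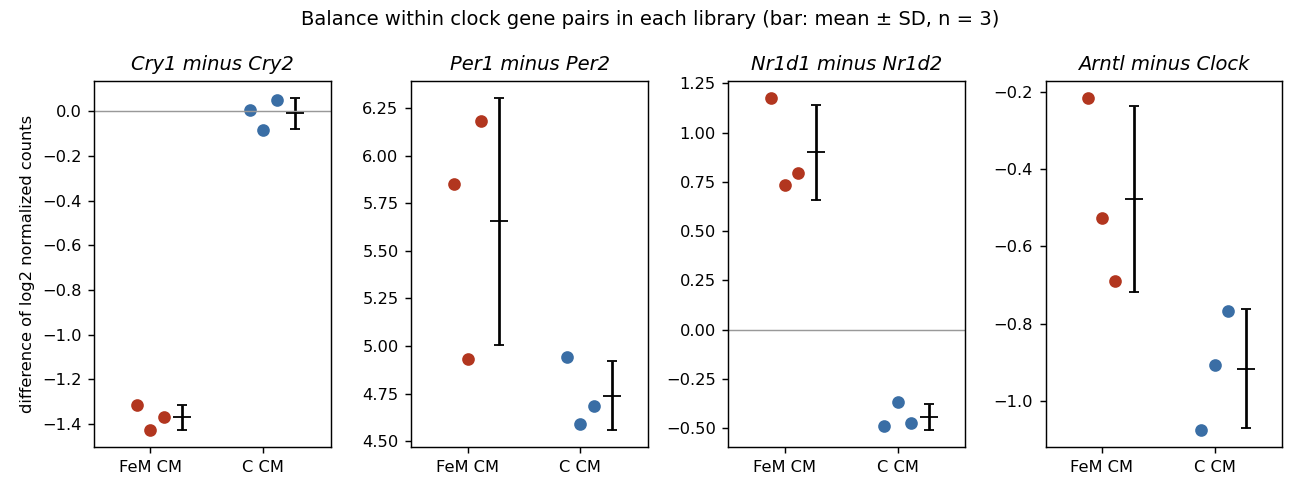
Difference of log2 normalized counts between the genes of each pair (vertical axes, own scale for each panel) in the FeM CM libraries (red) and the C CM libraries (blue), with mean and SD. Cry1 minus Cry2 lies between -1.43 and -1.31 with FeM CM and near 0 with C CM, and Nr1d1 minus Nr1d2 lies above 0 with FeM CM and below 0 with C CM.

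To compare levels between genes, normalized counts were divided by the exon length of each gene in GENCODE M21, an annotation that may not be the one the authors counted on. On this scale of normalized counts per kilobase, Per1 was the highest of the 10 in both groups, at 668 ± 65.0 with FeM CM and 526 ± 10.7 with C CM (SD, n = 3 each). With FeM CM, Nr1d1 (364) and Cry2 (359) followed and overlapped, then Cry1 (263) and Arntl (248), which overlapped too, then Clock (191) and Ciart (155), again overlapping. Nr1d2 (112), Dbp (22.2) and Per2 (13.1) closed the order with FeM CM, and the libraries of Dbp and Per2 overlapped. The output gene Dbp and the repressor gene Per2 thus lay far under the rest. With C CM the order was Cry1 (343), Nr1d1 (275), Nr1d2 (212), Clock (184), Cry2 (182) and Arntl (178), then Ciart (125), Dbp (61.8) and Per2 (18.8). Each neighbour from Nr1d2 to Arntl overlapped the next with C CM, and the others did not. Cry2 thus stood above Cry1 per kilobase with FeM CM and below it with C CM. Before division by length both were near level with C CM, at 1145 for Cry1 and 1152 for Cry2. Their order with C CM therefore rests on the lengths used, 3340 bases for Cry1 and 6320 for Cry2, with all annotated exons merged.

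Among 71 other measured clock-related genes, drawn from 6 lists, 67 passed the filter, 19 rose and 16 fell, with a median log2 fold change of 0.02 (-0.01 over all genes tested). Over all genes tested 42.5% were called, 19.7% higher and 22.8% lower. Of the 10 loop partners that passed the filter, 1 rose and 3 fell, a share called near the 42.5% of all genes. Nfil3, which encodes the repressor that competes with DBP at D-boxes, had 2268, 2109.9 and 2400.04 normalized counts in the FeM CM libraries, against 797, 754 and 723 in the C CM libraries. It was apart in every library, with a log2 fold change of 1.57 (SE 0.07, limma's adjusted p = 4.56e-07), while Tef, a relative of Dbp, was lower (-0.35, SE 0.11; limma adjusted p = 0.0302). Timeless (-0.99) and Tipin (-0.96), which in mammals protect replication forks, also fell. Tef lost its call in 5 of the 13 alternatives, with adjusted p-values up to 0.0971. Npas2, Arntl2 and Hlf were below the filter.

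Of 16 enzymes that mark and degrade clock proteins and passed the filter, 6 were called, beside 42.5% of all genes. The 4 that rose were the casein kinase gene Csnk1e, which phosphorylates PER proteins (log2 fold change 0.42), the kinase gene Gsk3b (0.33), and the ubiquitin ligase subunits Btrc (0.29) and Fbxw11 (0.23), which bring PER to degradation. The deubiquitinase Usp2, itself a clock output, fell (-0.90), as did the ligase Huwe1 (-0.15). Across the alternatives 6 to 9 of these enzymes were called, with 9 under quantile normalization, beside 42.7% of all genes. Of 13 co-regulators 7 were called, beside the same 42.5%: Ncor1 (0.26), the corepressor through which REV-ERBs act, and the demethylase Kdm5a (0.29) rose, and 5 fell: Hdac3 (-0.26), the deacetylase partner of NCOR1, Sin3a (-0.41), Wdr5 (-0.24), and the RNA-binding PER partners Nono (-0.41) and Sfpq (-0.81). The highest limma adjusted p among these was 0.0116.

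Of 8 measured output genes, 3 rose and 3 fell, beside 19.7% higher and 22.8% lower over all genes tested. Por, the electron donor of cytochrome P450 enzymes (0.54), Tsc22d3 (1.23) and Klf9 (0.27) rose. The mitotic inhibitor kinase Wee1 had 487, 535 and 532 normalized counts in the FeM CM libraries, against 1705, 1698 and 1839 in the C CM libraries, a log2 fold change of -1.75 (SE 0.07, limma's adjusted p = 2.71e-07). Its fall stands beside the fall of the cell cycle list given above. Klf10 (-1.32) and Nampt, the NAD salvage enzyme (-0.41), fell too, and Noct (-0.20) and Lpin1 (-0.11) did not pass, though Noct did without C CM replicate 3 (-0.46; limma adjusted p = 0.0481).

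Of 13 measured genes that REV-ERBs are known to repress, in macrophages or in the loop itself, 12 passed the filter, and Npas2 did not. Of these 12, 8 rose and 1, Cry1, fell, beside 19.7% higher and 22.8% lower over all genes tested, and their median log2 fold change was 1.18, beside -0.01 over all genes tested. The list was chosen with earlier results of these data known and also holds the clock genes Arntl, Clock and Cry1. Whether REV-ERBs had a part in these changes was not tested. Beside Arntl and Nfil3, the risers included the cytokine Il1b (3.30), the gelatinase Mmp9 (1.52) and the inflammasome sensor Nlrp3 (0.84), each with a limma adjusted p of 4.91e-07 or less. Clock, Cx3cr1 (-0.57) and Tlr4 (1.88) did not pass. Tlr4 had 444.5, 3025 and 3164 normalized counts in the FeM CM libraries, against 402.5, 329.7 and 645 in the C CM libraries, and without FeM CM replicate 1 its limma adjusted p was 0.00439. Of 12 genes listed around inputs to the Period promoters, regulators and responsive genes alike, 6 were called, beside 42.5% of all genes. The cAMP-responsive Crem (1.11), the kinase gene Sgk1 (1.25) and Mkl2 (0.19) rose, and Fkbp5 (-0.22), Srf (-0.27) and Mkl1 (-0.24) fell. Mkl2 and Mkl1 lost their calls in 6 and 5 of the 13 alternatives, with adjusted p-values up to 0.0937.

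**Figure D4:**
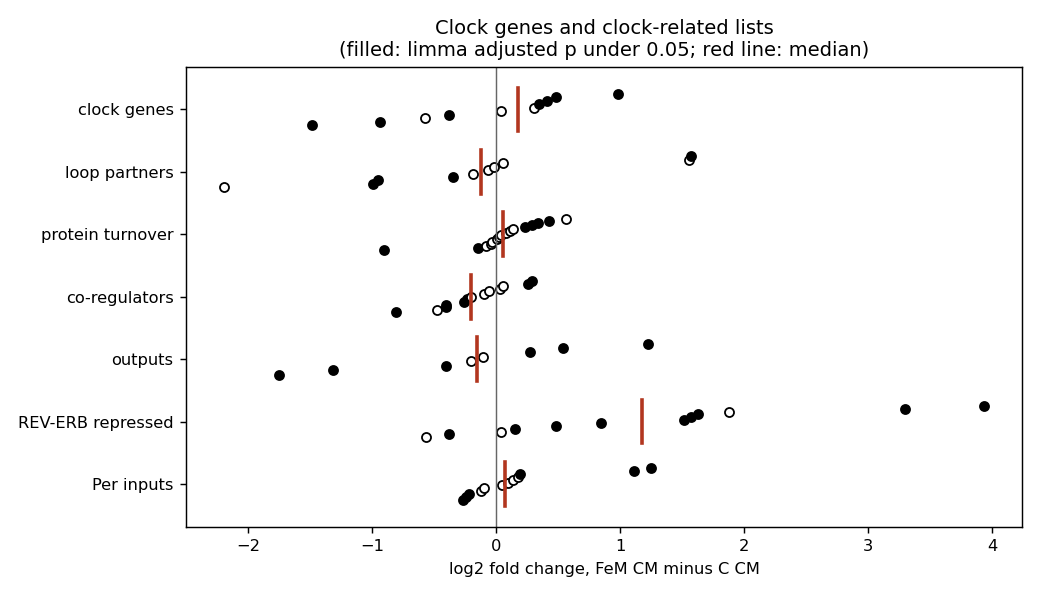
Log2 fold change, FeM CM minus C CM, of the 10 clock genes and of each gene of 6 clock-related lists that passed the filter (horizontal axis); filled points passed a limma adjusted p of 0.05 and the red line is the median of each list. The clock genes spread from -1.49 to 0.98 around a median of 0.17, and the list of genes repressed by REV-ERBs has a median of 1.18. All lists were chosen with earlier results of these data known.

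Genes most like the largest riser and the largest faller were sought among 11496 others with a mean of at least 100 normalized counts, as the smallest root mean square difference of centred log2 values over the 6 libraries. For Cry2 they were Fam13c (0.0306; log2 fold change 1.03), Spata2 (0.0313; 0.97) and Prob1 (0.0320; 1.01). For Dbp they were Rnf144b (0.0662; -1.50), Psrc1 (0.108; -1.62) and Baiap2 (0.112; -1.42). Rnf144b, like Dbp, was lowest in FeM CM replicate 2, at 97.2 normalized counts against 173 and 172 in replicates 1 and 3. The search selects for such a likeness, so it is no separate result.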

How the data were processed

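The authors deposited, per the file headers, log2 values for 26096 genes with their own fold changes, p-values and false discovery rates, and a shorter table that adds FPKM. The submitters' processing notes name HISAT2 2.1.0, fastp 0.17.1, R 3.4.3 and DESeq2 1.18.1, while genome build, annotation, counting tool and strand setting were not given in the sources used here. All deposited log2 values behave as log2(count / size factor + 1): with the log undone, 100% were whole multiples, within 0.01, of 1 read per library, which gave the depths and the reads. Fold changes are on that log2 scale and understate those of low genes. The comparison used limma 3.58.1 in R 4.3.3, two-sided, with an intensity trend and robust variances and with medium as the one term. It was tried on simulated data with the same dispersion for all genes and 200 of 15597 genes changed. That setting is unlike these data, where 42.5% of genes were called. SE and intervals of single genes are limma's. The SE of a pair shift comes from the variance of the log2 differences in each group, without limma. Means and SDs are of normalized counts unless another unit is named, and for the pairs they are of log2 differences.

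The clock genes, the lists and the tests were chosen with earlier results of these data known. Named genes were the 10, in each list the 4 with the smallest p and those counted where 5 or fewer are counted, genes overlapping a clock gene in GENCODE M21 (99.8% of gene IDs matched), and 3 patterns most like the extremes. Summed over the genes tested, replicate pairs within a group differed beyond sampling noise (chi-square per degree of freedom 16.3 to 22.8). Abundant and erratic genes weigh most in that sum. Single genes could vary far less, such as Cry2 with C CM (1152 ± 14.5 normalized counts, SD, n = 3). The labels do not say whether the samples were separate cultures; p-values therefore reflect only how these samples vary, a spread that may be technical. Alternatives were a replicate block, quantile normalization, TMM with limma-voom on the whole reads, other filters, a pseudocount of 10, limma without trend, and leaving out each library.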

Additional observations from a re-analysis of the deposited data

How the results depend on the processing

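Under all 13 alternatives the same 7 clock genes passed in the same direction, and leaving out FeM CM replicate 2 added Per2. The number of clock genes called was 7 to 8 and that of all genes 5798 to 6188 without 1 library, and 32 to 35 for the clock-related genes outside the 10. No pairing by replicate number was seen: deviations from the group means correlated at -0.04 to 0.01 for the same number and -0.05 to 0.07 for other numbers. Of 6 libraries, 0 correlated best with their own number. With all correlations this close to 0, the check cannot tell whether the samples were handled in pairs. With the replicate block 6226 genes and 7 clock genes passed, and of the genes named only Mkl2 lost its call (0.19; limma adjusted p = 0.0546). Leaving out 1 library moved Cry1 minus Cry2 to between -1.40 and -1.33, Nr1d1 minus Nr1d2 to between 1.21 and 1.43, Per1 minus Per2 to between 0.65 and 1.28, and Arntl minus Clock to between 0.31 and 0.55. With quantile normalization, chosen for the pairs after the data were seen, these shifts were -1.37, 1.36, 1.05 and 0.44. Among the genes named, signs turned in Clock, Per3, Lpin1 and Sphk2, and the cause was not tested. Without 1 library Clock ranged from -0.041 (without FeM CM replicate 3) to 0.19, with -0.026 without FeM CM replicate 2 and -0.011 without C CM replicate 3. Per3 ranged from -0.016 (without C CM replicate 3) to 0.16, with -0.010 without FeM CM replicate 2, Lpin1 from -0.19 to 0.00091 (without C CM replicate 3) and Sphk2 from -0.25 to 0.34 (without FeM CM replicate 2). Sphk2, at -0.029 with all libraries, was 0.025 with quantile normalization. Per2 and Dbp had the fewest reads of the 10, 576 and 780 over the 6 libraries, so counting noise weighs more on them than on the other 8. How much of their spread is counting noise was not tested.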
